A study of Homo sapiens with 3 samples.

Results

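The comparison set gene expression in cells given transforming growth factor beta 1 (TGF-b1) together with a small molecule that the labels call DP against expression in cells given TGF-b1 without it. The cells were LX-2, an immortal human line that was derived from stellate cells of the liver, grown in medium with serum. Each group was 1 RNA sequencing library taken at 48 h, with DP at 10 μM, and 1 more library, from cells given the vehicle DMSO, is printed beside as a level. Genes entered where the 3 libraries averaged 1 FPKM or more, which left 11327 of the 17576 genes in the deposited table, and 6249 fell below the filter. FPKM is a level per length: sequenced fragments scaled to transcript length and to the mapped fragments of the library. A difference is log2 of (FPKM + 1) with TGF-b1+DP over (FPKM + 1) with TGF-b1, and a gene is called higher or lower where it reached 1 in size, which is 2-fold on this scale. There were no replicates, so every difference is between 2 libraries and none has a p-value.

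Hepatic stellate cells store retinoids in the healthy liver. After injury they turn into myofibroblasts, which contract and lay down scar collagen. TGF-b1 is a main signal for that change: its receptors activate SMAD factors, which raise genes for matrix proteins, contractile proteins and feedback inhibitors. Stellate cells also answer inflammatory signals. NF-kB factors switch on chemokines, cytokines and their own inhibitors, and interferon signalling switches on antiviral genes.

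The label was checked against marker genes. Of 15 stellate cell and fibroblast markers measured, 5 stayed below 1 FPKM in all 3 libraries (DES, LRAT, RELN, TCF21 and LUM), while VIM, vimentin, was at 1936, 2734 and 2799.6 FPKM. Levels here and throughout come in the order DMSO, TGF-b1, TGF-b1+DP. The summed level of the 15 markers was 2360, 3687 and 3239 FPKM, most of it VIM. Of the other markers that reached 1 FPKM, NGFR was at 6.02, 1.38 and 1.56 FPKM. The rest, COL1A1, COL1A2, COL3A1, PDGFRB, ACTA2, TAGLN, HAND2 and THY1, were lower with DP than with TGF-b1. Among hepatocyte markers ALB, APOA1, TF, CYP3A4, HNF4A and FGB were below 1 FPKM throughout, and the sum of the 8 measured was 11.2, 6.87 and 94.9 FPKM, of which SERPINA1 made up 88.5 FPKM with DP. Sums for 8 endothelial markers were 1.55, 1.25 and 3.8 FPKM and for 6 epithelial markers 18.8, 22.7 and 11.8. The 7 leukocyte markers summed to 54.8, 25.2 and 56.8 FPKM, most of it CD68, with PTPRC below 1 throughout. In bulk RNA, fewer cells of a kind and less RNA per cell cannot be told apart.

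With DP, 701 genes were higher (6.19% of the 11327) and 483 lower (4.26%) than with TGF-b1 alone. The median difference was -0.00 with an SD of 0.66 over genes, and 59.2% of the genes lay within 0.5 of no difference. Differences of at least 2 were found for 83 higher genes (0.733%) and 30 lower genes (0.265%). At the edge of the threshold WDR6, at 0.999, was the first gene not called higher. On the other side TMEM191B at -1 was called lower, and PHPT1, at -0.999, was not. At the filter, PAX8 had a mean of 1 FPKM and was kept with a difference of 0.20, and CTSK had a mean of 0.997 FPKM and was left out with -0.30.

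**Figure D1:**
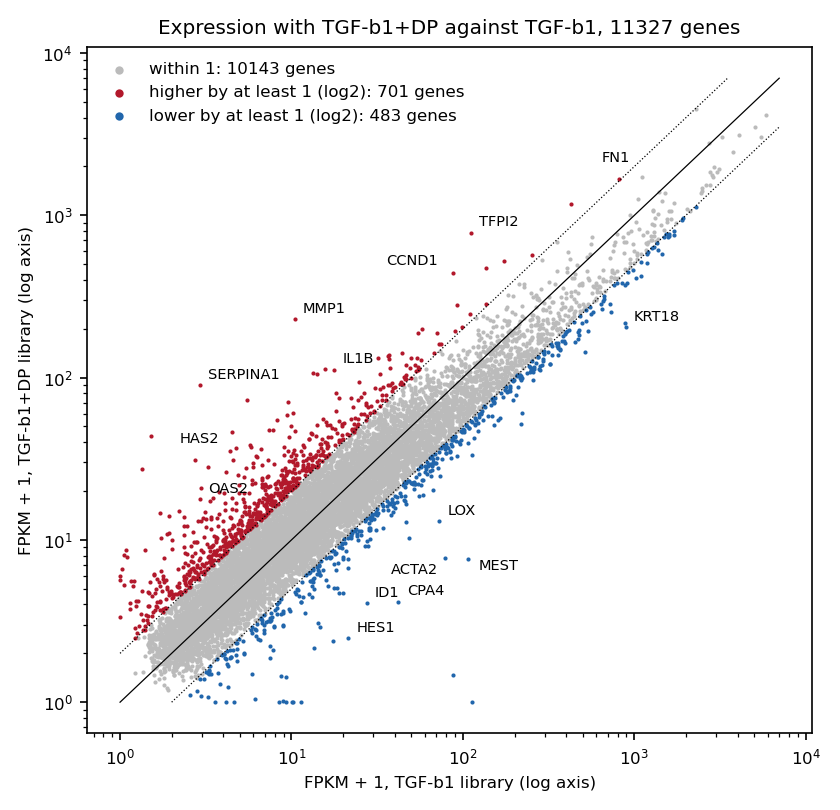
Each point is 1 of 11327 genes, placed by FPKM + 1 in the TGF-b1 library (x, log axis) and in the TGF-b1+DP library (y, log axis), and the dotted lines mark a log2 difference of 1 in either direction. The 701 genes called higher are red and the 483 called lower blue, with MMP1, SERPINA1 and TFPI2 far above the diagonal and ACTA2, MEST and CPA4 far below it.

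The 2 libraries also differed in ways that followed transcript length. The shortest 10% of genes (177 to 1623 bases) had a median difference of -0.66 with 28 genes higher and 204 lower. The longest 10% (7588 to 34526 bases) had a median of 0.50 with 208 higher and 7 lower. Genes called higher had a median transcript of 5767 bases, genes called lower 1828 and all kept genes 3698. The most abundant 10% of genes had a median of -0.52, with 35 higher and 155 lower. The part that length has in any single difference was not tested. The difference of each named gene that has a transcript length is therefore given as deposited and, in the form "corrected", after a running median over transcript length and GC content had been taken off. In the corrected values 356 genes were higher (3.16% of 11280) and 278 lower (2.46%), and 284 of the 693 higher genes with a transcript and 171 of the 478 lower ones stayed past the threshold. List counts below are to be read against 6.19% higher and 4.26% lower as deposited and against 3.16% and 2.46% corrected.

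**Figure D2:**
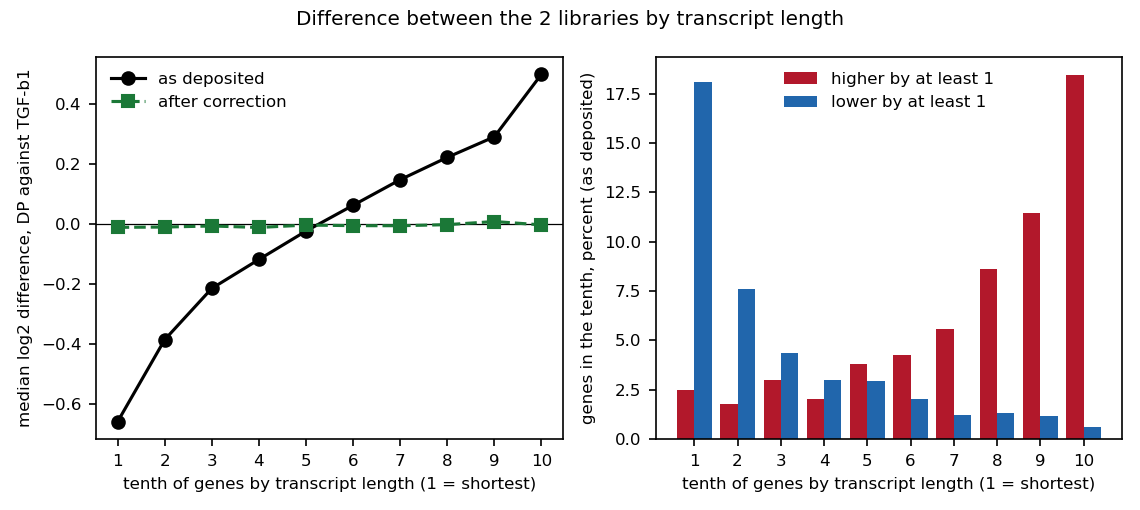
Genes were split into 10 bins of equal number by the length of their longest transcript (x, 1 is the shortest). Left, the median log2 difference climbs from -0.66 to 0.50 as deposited (black) and stays between -0.01 and 0.01 after correction (green); right, the percentage of genes in each bin called higher (red) and lower (blue) as deposited.

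The columns summed to 443566, 546754 and 429399 FPKM, so the DP column held 0.785 times the total of the TGF-b1 column. With both scaled to the same total the median over all genes moved to 0.29, and 1434 genes were higher (12.7%) and 125 lower (1.1%). List medians scaled in that way, called "same-total" here, are to be read against that 0.29. Of the 3 columns TGF-b1 had the highest total, with DMSO and DP nearer to each other. Some called genes had DP close to DMSO and the TGF-b1 library apart. Examples are AGRN (41.8, 13.6 and 38.2 FPKM) and RPLP2 (460.5, 1097 and 422 FPKM). In others, such as MMP1 (21.01, 9.43 and 228 FPKM) and CPA4 (72.3, 40.99 and 3.16 FPKM), DP lay apart from both. Genes of each kind were not counted, and the cause was not tested.

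Among genes with a transcript length, a matrix-degrading enzyme and 2 serine protease inhibitors held the 3 largest positive differences. SERPINA1, alpha-1-antitrypsin, a secreted inhibitor of neutrophil elastase (gene ID 5265, chromosome 14, 94376747 to 94390693 in GENCODE on GRCh38), stood at 3.99, 1.93 and 88.5 FPKM, a difference of 4.93 (4.78 corrected). MMP1, the collagenase that cuts fibrillar collagen (gene ID 4312, chromosome 11, 102789920 to 102798160), stood at 21.01, 9.43 and 228 FPKM, a difference of 4.46 (5.09 corrected). SERPINB2, plasminogen activator inhibitor 2, was at 1.23, 0.35 and 26.4 FPKM (4.34, corrected 4.85). For all 3 the DP library was the highest and the TGF-b1 library the lowest. SERPINB2 overlaps exons of SERPINB10, and the sum of both went from 0.43 FPKM with TGF-b1 to 26.4 FPKM when DP was added, a difference of 4.26. The 250 bases before the first listed start of SERPINA1 are shown because it had the largest positive difference among the named genes. The sequence is from RefSeq (GRCh38.p14), chr14:94390636-94390885 on the minus strand, and held none of the 5 motifs searched below.
SERPINA1: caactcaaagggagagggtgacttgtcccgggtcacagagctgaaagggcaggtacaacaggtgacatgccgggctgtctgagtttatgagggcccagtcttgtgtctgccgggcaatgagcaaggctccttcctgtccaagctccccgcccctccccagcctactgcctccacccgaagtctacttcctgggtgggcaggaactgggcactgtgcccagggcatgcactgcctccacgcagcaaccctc

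Of 19 matrix metalloproteinases measured, 7 were kept and 3 of them were higher and 0 lower, also after correction, with a median of 0.88 (0.56 corrected, 1.22 same-total). Of all genes 6.19% were higher and 4.26% lower (3.16% and 2.46% corrected). MMP14, a membrane-bound enzyme that activates other metalloproteinases, was at 23.1, 13.1 and 104 FPKM (2.90, corrected 2.58). MMP9, a gelatinase, was at 6.76, 6.75 and 46.5 FPKM (2.62, corrected 2.58). MMP2, the gelatinase that MMP14 activates, was at 16.2, 43.5 and 80.8 FPKM (0.88, corrected 0.56), so that it was highest with DP but stayed under the threshold. Of the metalloproteinase inhibitors TIMP1 was at 271, 1111 and 1717 FPKM (0.63, corrected 1.18), and TIMP2, which shares reads, was at 289, 355 and 199 FPKM (-0.83, corrected -1.04). Among 17 ADAM and ADAMTS proteases 3 were higher and 0 lower (1 and 1 corrected), and the list had a median of 0.51 that was 0.06 after correction. ADAMTS4, an aggrecanase, was at 1.46, 1.49 and 6 FPKM (1.49, corrected 0.82).

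The plasminogen system split. Of 9 kept genes 3 were higher and 3 lower (3 and 2 corrected). PLAU, urokinase, which turns plasminogen into plasmin, was at 11.3, 12.2 and 43.98 FPKM (1.77, corrected 1.75), and its receptor PLAUR at 24.01, 48.9 and 99.1 FPKM (1.003, corrected 1.39). SERPINE2, a thrombin and urokinase inhibitor, was lower at 44.7, 204 and 77.1 FPKM (-1.39, corrected -1.52), and so was S100A10, which binds plasminogen at the cell surface together with annexin A2, with 561, 886 and 216 FPKM (-2.03, corrected -1.48), and F3, tissue factor, at 31.4, 27.2 and 12.6 FPKM (-1.05, corrected -0.65). Of the 9 other serpins kept 2 were higher, SERPINA1 and SERPINB7, and 0 lower, with a median of -0.22 that turned to 0.06 corrected. The median of the plasminogen list was -0.35, or -0.23 corrected and 0.01 with no filter on low values. TFPI2, an inhibitor of plasmin and tissue factor, was chosen after its values were seen. It was at 59.03, 110.2 and 782 FPKM (2.81, corrected 3.24), among the most abundant of the genes that differed by more than 2.

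Further genes among the 20 largest positive differences were ESM1, a secreted proteoglycan of endothelium, at 1.24, 1.73 and 30.3 FPKM (3.52, corrected 4.01). STC1, a secreted glycoprotein hormone, was at 7.24, 8.52 and 69.7 FPKM (2.89, corrected 2.93). SLAMF8, an immune cell surface receptor, was at 0.28, 2.26 and 27.2 FPKM (3.11, corrected 3.10). CD93, a receptor of endothelial and myeloid cells, was at 0.06, 0.10 and 6.84 FPKM (2.83, corrected 2.35). These 4 were highest with DP and under 10 FPKM in both other libraries. ANTXR2, a receptor that binds collagen IV and laminin, was at 24.2, 12.3 and 106 FPKM (3, corrected 2.61). MYEOV was at 0.54, 0.72 and 13.6 FPKM (3.09, corrected 3.11). POU2F2, a transcription factor of B cells, was at 1.59, 0.93 and 12.99 FPKM (2.86, corrected 2.30). CCL3L3, a paralog of the chemokine gene CCL3, was at 0.10, 0.09 and 7.72 FPKM (3, corrected 3.52), and how reads were split between the paralogs is uncertain.

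The 20 lower genes were led, apart from those that share reads, by CPA4, a carboxypeptidase, at 72.3, 40.99 and 3.16 FPKM (-3.34, corrected -3.27). HES1, a repressor that Notch signalling switches on, was at 3.17, 20.4 and 1.49 FPKM (-3.10, corrected -2.70). CXXC5, a zinc finger protein, was at 7.82, 13.7 and 1.91 FPKM (-2.33, corrected -2.42). HTRA1, a secreted serine protease, was at 13.2, 13.2 and 2.09 FPKM (-2.20, corrected -2.13). All 4 were lowest with DP, and CPA4 was highest in DMSO. MDK, the growth factor midkine, was at 181, 218 and 50.7 FPKM (-2.08, corrected -1.72). PIM1, a kinase, was at 22.4, 18.9 and 3.72 FPKM (-2.08, corrected -2.13). MAP3K7CL was at 11.8, 47.5 and 9.22 FPKM (-2.25, corrected -1.75). All 3 were lowest with DP, and MAP3K7CL was close to its DMSO level.

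**Figure D3:**
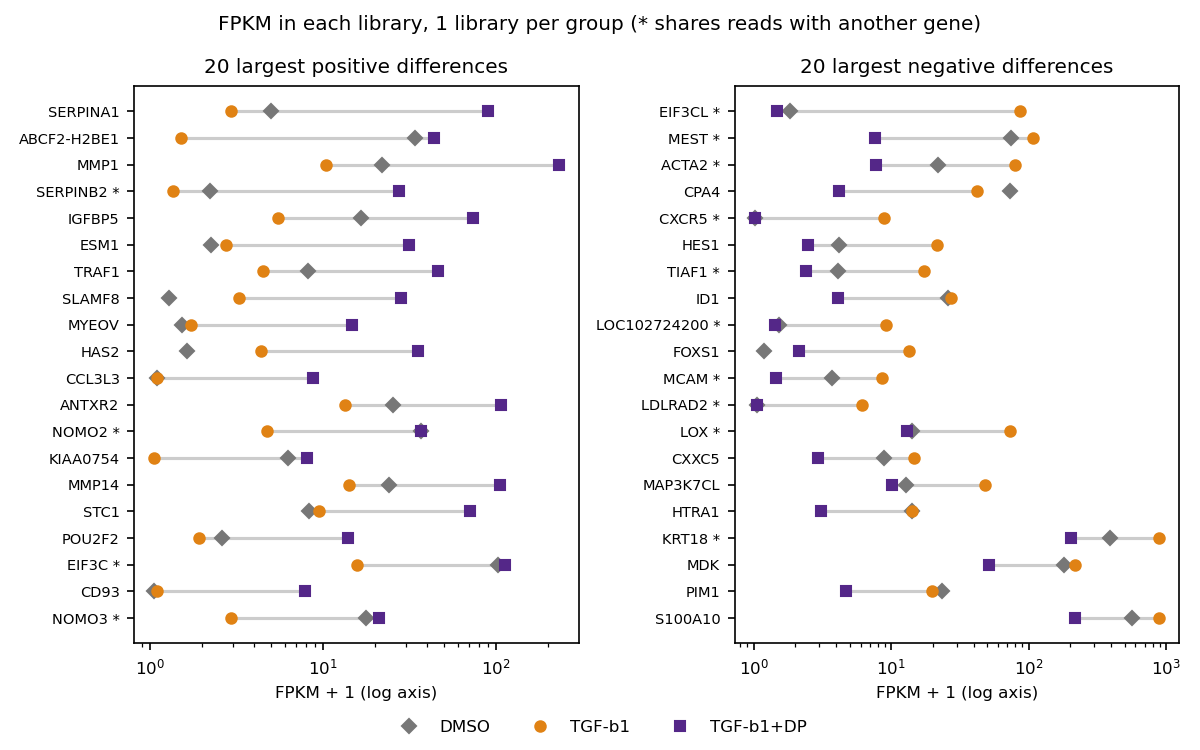
FPKM + 1 (x, log axis) of the 20 genes with the largest positive (left) and negative (right) differences in the DMSO (diamond), TGF-b1 (circle) and TGF-b1+DP (square) libraries, 1 library per group, with a star for genes that share reads with another gene. MMP1 went from 9.43 to 228 FPKM when DP was added, and CPA4 from 40.99 to 3.16, while in EIF3C and NOMO2 the DMSO and DP points lie almost on each other.

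Of the 20 higher genes 4 share reads with another measured gene, and of the 20 lower genes 10, against 23.9% of all kept genes. For several the partner held the opposite difference. EIF3CL, a copy of the translation initiation gene EIF3C, was at 0.83, 86.2 and 0.48 FPKM (-5.88, corrected -5.92) and EIF3C itself at 102, 14.7 and 112 FPKM (2.84, corrected 2.79), while their sum was 100.91 FPKM without and 112.1 with DP, a difference of 0.15. In the same way the sum of LOC102724200 and TRAPPC10 differed by 0.17, of MCAM and CBL by 0.33, of LDLRAD2 and HSPG2 by -0.13, of TIAF1 and MYO18A by -0.48 and of CXCR5 and BCL9L by 1.12. In none of these sums did the pair differ by 1 or more in the direction of the single gene. The sums kept the direction and passed the threshold for ACTA2 with FAS (-2.998), MEST with COPG2 (-2.18), LOX with SRFBP1 (-1.99) and KRT18 with KRT8 (-2.02). NOMO2 and NOMO3, near-identical to each other and to NOMO1, summed to 52.6, 5.71 and 55.8 FPKM (3.08), and NOMO1 was at 39.3, 18.7 and 37.2 FPKM (0.96, corrected 0.70). The sums with NOMO1 differed less: 75.1, 22.4 and 73.04 FPKM with NOMO2 (1.66) and 56.02, 20.6 and 57.2 FPKM with NOMO3 (1.43). In each of these pair sums DP lay near DMSO. ABCF2-H2BE1 (4.86) and KIAA0754 (2.93) had no transcript length in the annotation, so shared reads could not be looked up. A further 9 kept genes were listed at 0 with DP, 6 of them at 5 FPKM or more with TGF-b1, and 3 were listed at 0 with TGF-b1. No difference is given for these as a finding.

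Interferon-stimulated genes, which block viral replication, were higher as a group. Of 53 measured, 50 were kept, 33 of these were higher and 0 lower, against 6.19% and 4.26% of all genes. The median was 1.19, 1.28 corrected (36 higher) and 1.48 same-total, and 48 of the 50 lay above 0. The OAS enzymes make the signal that activates RNase L: OAS1 was at 1.94, 1.37 and 12.8 FPKM (2.55, corrected 2.79). OAS2 was at 3.64, 1.92 and 16.8 FPKM (2.61, corrected 2.47). OAS3 was at 14.8, 4.99 and 28.9 FPKM (2.32, corrected 1.83). MX1, a GTPase that traps viral ribonucleoproteins, was at 3.41, 1.37 and 9.74 FPKM (2.18, corrected 2.05). In all 4 the TGF-b1 library was the lowest and the DP library the highest.

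Outside the naming rule, and chosen after their values were seen, IFIT1, IFIT2 and IFIT3 bind viral RNA or its sensors. IFIT3 was at 16.2, 8.62 and 42.1 FPKM (2.16, corrected 2.47). IFIT2 was at 5.90, 3.48 and 17.1 FPKM (2.01, corrected 2.04). IFIT1 was at 6.26, 4.39 and 15.1 FPKM (1.58, corrected 1.49). The cytosolic RNA sensors were higher too, DDX58 at 2.12, 2.10 and 9.36 FPKM (1.74, corrected 1.89) and IFIH1 with 1.37, 1.02 and 3.65 FPKM (1.203, corrected 1.33). STAT2, a factor that switches such genes on, was at 15.4, 7.64 and 20.2 FPKM (1.30, corrected 1.27). ISG15, a ubiquitin-like modifier, was at 58.7, 73.4 and 161 FPKM (1.12, corrected 1.73). IFI44 was higher with TGF-b1 than in DMSO and higher again with DP, at 3.88, 5.74 and 28.1 FPKM (2.11, corrected 2.86). The lowest member was IFITM2, which shares reads, at 46.7, 36.4 and 21.6 FPKM (-0.73, corrected 0.01).

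The promoters of 2 of these genes are shown because both hold the interferon response motif, in capitals (GAAA and a second GAAA with 2 bases of any kind between them), in the 250 bases before the start. IFIT3 lies at chr10:89327747-89327996 and IFIT1 at chr10:89392373-89392622, both on the plus strand (RefSeq, GRCh38.p14). The motif, searched on both strands, began at -156 and -122 in IFIT3 and at -116 and -103 in IFIT1, counted from the start.
IFIT3: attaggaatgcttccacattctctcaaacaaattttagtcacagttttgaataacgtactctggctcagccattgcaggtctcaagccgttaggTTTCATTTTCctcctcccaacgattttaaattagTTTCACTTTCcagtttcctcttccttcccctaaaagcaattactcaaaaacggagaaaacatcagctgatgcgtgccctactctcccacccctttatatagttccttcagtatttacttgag
IFIT1: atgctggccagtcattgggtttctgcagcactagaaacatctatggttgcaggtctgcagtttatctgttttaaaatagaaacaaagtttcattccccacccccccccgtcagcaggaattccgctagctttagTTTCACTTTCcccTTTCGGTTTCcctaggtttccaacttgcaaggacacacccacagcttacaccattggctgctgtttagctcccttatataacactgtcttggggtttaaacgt

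Windows of 250 bases before to 50 after a listed start were given by RefSeq for 9401 of the kept genes (13799 windows, since a gene may have several starts). The interferon motif was in 60.8% of the 51 windows of 39 interferon-stimulated genes, in 6.24% of the 850 windows of 563 genes called higher, in 2.05% of the 585 windows of 400 genes called lower and in 2.81% of all. Across all 35116 windows of the table the share was 3.57%. The genes called higher include interferon-stimulated genes, so the first 2 shares are not separate. The motif was in 31 windows of that list and in 53 windows of the genes called higher. These are matches of letters and no binding was measured.

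NF-kB factors, their inhibitors and adaptors were higher in part. Of 27 kept genes 11 were higher and 0 lower (9 and 0 corrected), against 6.19% and 4.26% of all genes (3.16% and 2.46% corrected), with a median of 0.79 (0.48 corrected, 1.07 same-total). TRAF1, an adaptor of tumour necrosis factor receptors and itself a target of NF-kB (chromosome 9, 120902393 to 120929173), was at 7.21, 3.47 and 45.3 FPKM (3.37, corrected 2.91). TNFAIP3, the A20 enzyme that shuts NF-kB signalling off (chromosome 6, 137867188 to 137883312), was at 12.4, 4.78 and 36.5 FPKM (2.70, corrected 2.45). Both were lowest with TGF-b1 and highest with DP. ICAM1, an adhesion molecule for leukocytes, was at 16.4, 10.7 and 37.7 FPKM (1.73, corrected 1.58). TNIP1, a partner of A20, was at 61.8, 42.9 and 141 FPKM (1.69, corrected 1.55). Of the subunits, NFKB1 was at 17.1, 10.8 and 26.3 FPKM (1.21, corrected 0.96). NFKB2 was at 46.7, 26.3 and 66.3 FPKM (1.30, corrected 1.05). RELB was at 18.8, 15.02 and 38.7 FPKM (1.31, corrected 1.29). NFKBIA, the classical inhibitor, was at 55.97, 53.2 and 63.9 FPKM (0.26, corrected 0.58), and the lowest member was BCL3, a nuclear cofactor, at 13.96, 16.9 and 9.73 FPKM (-0.74, corrected -0.63).

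The promoters of TNFAIP3 and TRAF1 are shown as the strongest members of that group. TNFAIP3 (chr6:137867009-137867258, plus strand) held the NF-kB motif (GGG, 2 bases of any kind, then TTTCC) at -67 and -55 and the SMAD motif GGCGCC at -239. TRAF1 (chr9:120929172-120929421, minus strand, the first of its 3 listed starts) held the SMAD motif at -138 only. Capitals mark the motifs.
TNFAIP3: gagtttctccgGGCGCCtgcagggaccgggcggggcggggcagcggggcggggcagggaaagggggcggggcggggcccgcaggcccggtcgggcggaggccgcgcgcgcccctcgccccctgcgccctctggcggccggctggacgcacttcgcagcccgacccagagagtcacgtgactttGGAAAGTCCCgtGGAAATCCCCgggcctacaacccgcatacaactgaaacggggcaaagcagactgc
TRAF1: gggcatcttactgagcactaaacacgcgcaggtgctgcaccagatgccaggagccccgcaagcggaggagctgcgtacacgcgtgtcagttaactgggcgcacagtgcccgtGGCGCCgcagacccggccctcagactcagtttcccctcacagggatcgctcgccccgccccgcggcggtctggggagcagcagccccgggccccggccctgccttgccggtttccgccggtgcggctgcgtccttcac
The NF-kB motif was in 28.6% of the 42 windows of 24 genes of that list, 4% of the windows of genes called higher, 1.2% of genes called lower and 2.09% of all kept genes. Members of the list that were called higher are counted among the higher genes too. The SMAD motif was in 38.1% of the windows of that list and in 27.8%, 23.8% and 29.8% of those of higher, lower and all kept genes.

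Chemokines went both ways. Of 13 kept, 5 were higher and 2 lower (7 and 1 corrected), with a median of 0.34 that was 1.01 after correction, and their transcripts are short (median 1494 bases). CCL5, which draws lymphocytes, was at 5.15, 7.21 and 54.2 FPKM (2.75, corrected 3.23). CXCL8, which draws neutrophils, was at 67.2, 56.8 and 198 FPKM (1.78, corrected 2.68). CXCL5 was at 2.72, 2.15 and 13.8 FPKM (2.24, corrected 2.73). CCL3 was at 0, 0.06 and 4.28 FPKM (2.32, corrected 2.76). CXCL12, which holds blood stem cells and lymphocytes in tissue, was lower at 157, 525 and 221 FPKM (-1.24, corrected -1.23), as was CCL26, which draws eosinophils, at 11.3, 7.94 and 1.96 FPKM (-1.59, corrected -0.79). CCL2, which draws monocytes, was at 21.1, 81.5 and 40.5 FPKM, with -0.99 as deposited and -0.03 corrected.

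A list of interleukins 1, 6 and 11 and their relatives also held receptors of other interleukins. Of its 15 kept genes 4 were higher and 0 lower, and their median was 0.59 (0.58 corrected). IL1B, interleukin 1 beta, was at 15.5, 16.8 and 111 FPKM (2.66, corrected 3.24), so that DMSO and TGF-b1 lay close together and DP stood apart. IL6 was at 1.86, 5.43 and 12.4 FPKM (1.06, corrected 1.71). The other higher members, IL7R and IL4R, are receptors outside those families. IL7R, a lymphokine receptor, was at 24.3, 17.97 and 74.04 FPKM (1.98, corrected 1.94). IL4R was at 12.86, 9.49 and 20.25 FPKM (1.02, corrected 0.70). IL11, a profibrotic cytokine that TGF-b1 raises, was at 8.61, 36.4 and 37.6 FPKM (0.04, corrected 0.19), near the same level with and without DP. BCL2A1, a survival factor and NF-kB target, was at 1.27, 5.64 and 35.5 FPKM (2.46, corrected 3.42). Among 19 genes of HLA class I antigen presentation 4 were higher and 0 lower, and the median was 0.37 (0.45 corrected): TAP2, a peptide transporter, was at 31.8, 16.2 and 47.8 FPKM (1.51, corrected 1.19), while B2M, the light chain, was at 685, 1022 and 905 FPKM (-0.17, corrected 0.29). In the apolipoprotein L family, to which the study's title points through APOL2, 2 of 5 kept were higher (APOL1 and APOL3). APOL2 was at 56.1, 49.1 and 85.8 FPKM (0.79, corrected 0.76). APOL3 stood at 12.5, 7.92 and 22.9 FPKM (1.42, corrected 1.46).

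Matrix genes did not move as 1 group. Of 6 kept fibrillar collagens 1 was higher and 1 lower (1 and 2 corrected), with a median of -0.48 (-0.80 corrected, -0.16 same-total). COL3A1, the chain of collagen III, was at 34.9, 33.1 and 10.8 FPKM (-1.53, corrected -1.91), below both other libraries. COL1A1, the main chain of scar collagen, was at 295, 604 and 349 FPKM (-0.79, corrected -1.47). COL1A2 was at 1.22, 5.91 and 3.24 FPKM (-0.70, corrected -0.88). The higher one was COL27A1, a minor cartilage collagen, at 0.69, 1.71 and 8.72 FPKM (1.84, corrected 1.001). COL5A1 had 0.14 as deposited and -0.73 corrected, so its sign depended on that step.

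Of 12 other collagens 3 were higher and 0 lower as deposited, and 0 and 0 corrected, with medians of 0.58 and 0.11. COL6A3, of the beaded collagen VI, was at 26.7, 52.3 and 109.6 FPKM (1.05, corrected 0.31). Laminins and their basement membrane partners had 7 of 11 higher and 0 lower as deposited and 2 and 0 corrected, with a median of 1.26 (0.72 corrected, 1.56 same-total). Of all genes 6.19% were higher and 4.26% lower (3.16% and 2.46% corrected). The median transcript of this list had 5864 bases. In the bin of all genes at that length 97 of 1128 were higher as deposited, and in the longest bin 208 of 1128. LAMB3, a laminin chain, was at 7.26, 2.76 and 18.9 FPKM (2.401, corrected 2.03). It stayed past the threshold after correction. AGRN, agrin, was at 41.8, 13.6 and 38.2 FPKM (1.42, corrected 0.72). Of the 11 genes 3 share reads with another gene. HSPG2, perlecan, is among these 3 and was called higher at 8.73, 0.58 and 5.07 FPKM (1.94, corrected 0.97). Its sum with LDLRAD2, which overlaps it, differed by only -0.13.

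Among 19 genes of collagen crosslinking and processing 1 was higher and 2 lower, with a median of -0.16 (0.02 same-total). LOX, lysyl oxidase, which crosslinks collagen and elastin, was at 13.1, 71.8 and 12.1 FPKM (-2.48, corrected -2.58), back near its DMSO level. PCOLCE, an enhancer of procollagen cleavage, was at 11.4, 14.8 and 4.67 FPKM (-1.48, corrected -1.27). TGM2, a transglutaminase that shares reads, was at 10.6, 6.36 and 46.4 FPKM (2.69, corrected 2.29). LOXL2 was at 139, 125 and 135 FPKM (0.11, corrected -0.16), so the enzymes of this list did not share a direction.

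Of 13 kept genes for fibronectin and matricellular proteins 1 was higher and 2 lower. FN1, fibronectin, was at 174, 809 and 1686 FPKM (1.06, corrected 0.61), highest with DP. SPARC, a collagen-binding protein, was at 269.5, 880.4 and 369.9 FPKM (-1.25, corrected -1.33). TGFBI was at 132, 901 and 382 FPKM (-1.24, corrected -1.59). In both the DP library lay between DMSO and TGF-b1. Of 11 elastic fibre and latent TGF-beta binding genes 2 were higher and 1 lower, the latter EFEMP1, a fibulin, at 13.6, 25.97 and 8.23 FPKM (-1.55, corrected -1.36). Of 12 proteoglycans 1 was higher and 1 lower, the latter GPC6, a glypican, at 2.61, 7.89 and 2.55 FPKM (-1.32, corrected -1.50). HAS2, the main hyaluronan synthase of fibroblasts, was at 0.64, 3.36 and 34.1 FPKM (3.01, corrected 3.10), while TNFAIP6, which links hyaluronan to its protein partners, was at 1.49, 13.4 and 6.25 FPKM (-0.99, corrected -0.11). Among 12 integrin subunits 3 were higher and 0 lower (1 and 0 corrected): ITGA2, of the collagen receptor, was at 3.54, 2.36 and 16.4 FPKM (2.37, corrected 2.05).

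The TGF-beta pathway itself showed single genes rather than a shift. Of 12 ligands, receptors and receptor SMADs 1 was higher and 1 lower: the receptor TGFBR2 was at 17.4, 15.5 and 32.8 FPKM (1.04, corrected 0.82) and the ligand TGFB2 at 2.89, 21.2 and 9.72 FPKM (-1.05, corrected -1.09). TGFB1, which shares reads, was at 87.5, 222 and 136 FPKM (-0.70, corrected -0.88). SMAD3 was at 48.2, 24.5 and 22.4 FPKM (-0.12, corrected -0.53). The feedback inhibitor SMAD7 was at 7.88, 18.8 and 23.5 FPKM (0.31, corrected -0.07). Of 37 kept SMAD targets 5 were higher and 5 lower (3 and 6 corrected), with a median of 0.11 (-0.05 corrected). PODXL, a sialomucin, was at 98.4, 136 and 475 FPKM (1.79, corrected 1.35). HMGA2, a chromatin factor, was at 3.72, 4.32 and 16.1 FPKM (1.68, corrected 1.33). These 2 were among the higher ones. SNAI1, a repressor of epithelial genes, was lower at 1.57, 15.3 and 4.17 FPKM (-1.66, corrected -1.37). KLF10, an early TGF-beta gene, was lower at 24.5, 45.2 and 20.2 FPKM (-1.12, corrected -1.14). CCN2, a matricellular growth factor, was at 26.1, 144 and 139 FPKM (-0.04, corrected 0.14 and above 0 same-total), near the same level with and without DP.

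Inhibitors of DNA binding, the usual targets of BMP signalling, were lower: ID1 was at 24.8, 26.4 and 3.08 FPKM (-2.75, corrected -2.31). ID3 was at 68.6, 112 and 32.4 FPKM (-1.76, corrected -1.32). ID2 was at 13.4, 11.8 and 5.34 FPKM (-1.02, corrected -0.81). The BMP antagonist GREM1 was higher at 129, 174 and 519 FPKM (1.57, corrected 1.02). The whole list of 16 had 1 higher and 3 lower, with a median of -0.09 (0.21 same-total and 0.12 among genes of at least 5 FPKM). INHBA, the activin A subunit, was at 1.64, 8.94 and 49.4 FPKM (2.34, corrected 2.22), higher in TGF-b1 than in DMSO and higher again with DP. Of 19 mesenchymal transcription factors 0 were higher and 4 lower: SNAI1, FOXS1, LHX2 and SOX9. FOXS1 was at 0.19, 12.6 and 1.15 FPKM (-2.66, corrected -2.27). LHX2 was at 7.19, 5.29 and 2.04 FPKM (-1.05, corrected -1.12). SOX9, a driver of matrix genes in stellate cells, was at 12.6, 13.9 and 6.43 FPKM (-1.005, corrected -1.13). The median was -0.23 (-0.34 corrected, 0.01 same-total).

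Contractile genes went both ways. Of 34 kept, 8 were higher and 4 lower as deposited and 2 and 4 corrected. The median was -0.03 as deposited, 0.02 corrected and 0.32 same-total. ACTA2, smooth muscle actin and the classical myofibroblast marker (chromosome 10, 88935074 to 88991339), was at 21.1, 78.1 and 6.79 FPKM (-3.34, corrected -2.86). TAGLN, transgelin, which shares reads, was at 53.9, 220.1 and 59.8 FPKM (-1.86, corrected -2.05). MYL9, the light chain of smooth muscle myosin, was at 213, 387 and 167 FPKM (-1.20, corrected -1.31). CNN1, calponin, was at 4.04, 6.52 and 2.18 FPKM (-1.24, corrected -1.01). In ACTA2, MYL9 and CNN1 the DP library was below DMSO too, and in TAGLN it was above.

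The higher members included FLNA, FLNC, TLN1, ACTN4, TNS1, MYH9 and SMTN. TLN1, talin, which ties integrins to actin, was at 84.3, 35.95 and 129 FPKM (1.82, corrected 1.01). FLNC, a filamin, was at 178, 54.1 and 189 FPKM (1.78, corrected 0.87). FLNA was at 1107, 429 and 1167 FPKM (1.44, corrected 0.55). MYH9, nonmuscle myosin heavy chain, was at 449.8, 251 and 569 FPKM (1.18, corrected 0.46). ACTN4, which shares reads, was at 260.4, 91.3 and 280.4 FPKM (1.61, corrected 1.17). Only TLN1 and ACTN4 kept a value of at least 1 after correction, whereas the values of the 4 lower genes named above stayed past -1.

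For ACTA2, the marker gene of the myofibroblast, the window before 1 of its listed starts is shown. RefSeq lists 2 starts, and the first lies after chr10:88991338-88991587 on the minus strand. This is the upstream end of the annotated span of ACTA2, a gene whose exons overlap those of FAS. The window of the other start is not shown, so this window does not stand for both. The interferon motif at -250, in capitals, was its only match, and no CArG box, the motif of serum response factor, was found in this window.
ACTA2: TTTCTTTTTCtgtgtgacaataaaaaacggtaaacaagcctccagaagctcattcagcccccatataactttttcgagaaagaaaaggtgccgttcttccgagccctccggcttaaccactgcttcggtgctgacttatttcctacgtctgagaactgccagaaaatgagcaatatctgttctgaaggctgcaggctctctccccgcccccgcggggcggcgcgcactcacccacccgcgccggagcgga
Over all windows the CArG box was in 1.06% of those of higher genes, 2.05% of lower genes and 1.15% of kept genes.

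Keratins, the intermediate filaments of epithelia, lay below 0. Their list also held KRTAP2-3, a keratin-associated gene that shares reads, at 2.21, 2.69 and 3.43 FPKM (0.26, corrected 1.01). Of its 9 kept genes 0 were higher and 4 lower (1 and 4 corrected, the 1 being KRTAP2-3). The median was -0.67 (-0.45 corrected, -0.37 same-total). Of all genes 6.19% were higher and 4.26% lower (3.16% and 2.46% corrected). KRT18 was at 388, 890.1 and 203 FPKM (-2.13, corrected -1.88). KRT8, with which it shares reads and pairs in filaments, was at 314, 517 and 143 FPKM (-1.85, corrected -1.87). KRT81, which also shares reads, was at 12.2, 27.1 and 8.11 FPKM (-1.63, corrected -1.49). All 3 were lower with DP than in either other library. All 11 kept tubulins were below 0 as deposited, with a median of -0.55 (-0.40 corrected, -0.21 same-total), and 1 was past the threshold, TUBA4A at 9.03, 7.63 and 2.50 FPKM (-1.30, corrected -1.30).

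Signalling genes gave mostly single differences. Of 16 ERK feedback inhibitors 4 were higher and 0 lower (2 and 0 corrected), with a median of 0.37 (0.33 corrected): SPRY2 was at 6.60, 6.59 and 17.9 FPKM (1.31, corrected 1.47). SPRY4 was at 4.32, 2.42 and 8.21 FPKM (1.43, corrected 1.16). Both inhibit receptor tyrosine kinase signalling. Of 12 AP-1 factors 2 were higher, MAFG and MAFF, and 0 lower (2 and 1 corrected), with a median of 0.39 (0.14 corrected). MAFG, which shares reads, had 1.29 (corrected 0.82). The lowest member, JDP2, was at 13.4, 13.6 and 6.77 FPKM (-0.91, corrected -1.23). MAFF was at 8.69, 12.8 and 42.8 FPKM (1.66, corrected 1.47). FOSL1, a Fos relative just under the threshold as deposited, was at 209, 72.3 and 144 FPKM (0.99, corrected 1.32). CCND1, cyclin D1, which shares reads, was at 89.7, 86.2 and 440.1 FPKM (2.34, corrected 2.14), and its partner kinase CDK6 at 4.83, 4.04 and 12.2 FPKM (1.39, corrected 0.88).

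The AP-1 motif TGANTCA stood at -87 in the promoter of TFPI2, shown because that gene was the most abundant of those with a difference above 2 (chr7:93890754-93891003, minus strand). The motif was in 6.35% of windows of higher genes, 3.25% of lower genes and 4.83% of kept genes.
TFPI2: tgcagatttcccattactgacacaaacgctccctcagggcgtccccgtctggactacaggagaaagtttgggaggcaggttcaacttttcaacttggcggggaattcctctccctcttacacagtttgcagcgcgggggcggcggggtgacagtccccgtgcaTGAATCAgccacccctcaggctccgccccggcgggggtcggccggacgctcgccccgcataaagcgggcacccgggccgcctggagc

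Genes of vessel growth included NRP2, a coreceptor for VEGF and semaphorins, at 11.3, 9.45 and 45.8 FPKM (2.16, corrected 1.71). TIE1, an angiopoietin receptor relative, was at 7.91, 4.66 and 18.4 FPKM (1.78, corrected 1.45). With ESM1 and ANGPTL2 these made 4 of 11 kept that were higher, and 0 were lower (3 and 0 corrected), and the median was 0.68 (0.77 corrected). Of all genes 6.19% were higher and 4.26% lower (3.16% and 2.46% corrected). Of 17 semaphorins and plexins 5 were higher and 0 lower (2 and 1 corrected), to be read against the same shares. Their median transcript had 5684 bases, and in the bin of all genes at that length 97 of 1128 were higher as deposited. SEMA7A, a membrane semaphorin, was at 7.32, 8.40 and 57.8 FPKM (2.65, corrected 2.43). Among IGF binding proteins IGFBP5 was at 15.5, 4.48 and 72.2 FPKM (3.74, corrected 3.26), while IGFBP3 was at 3.38, 11.7 and 3.64 FPKM (-1.46, corrected -1.26). IGFBP7, which shares reads, was at 63.5, 208 and 86.9 FPKM (-1.25, corrected -0.78). The 10 kept genes of the IGF axis had 2 higher and 2 lower, and their median of 0.18 turned to -0.40 after correction. IGFBP5 had the largest difference among signalling genes, so its promoter is shown (chr2:216695550-216695799, minus strand), and it held none of the 5 motifs.
IGFBP5: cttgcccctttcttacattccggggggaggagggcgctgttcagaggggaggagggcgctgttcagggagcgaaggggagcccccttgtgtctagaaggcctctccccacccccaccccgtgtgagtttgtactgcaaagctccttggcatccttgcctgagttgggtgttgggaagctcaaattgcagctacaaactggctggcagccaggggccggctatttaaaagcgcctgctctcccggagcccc

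Of 11 Notch genes 1 was higher and 3 lower (0 and 4 corrected), with a median of -0.32 (-0.54 corrected, 0.01 same-total). HES1, HES4 and LFNG were the lower ones. HES4 was at 8.79, 12.3 and 4.52 FPKM (-1.27, corrected -0.74). LFNG, which glycosylates Notch, was at 5.26, 7.26 and 2.48 FPKM (-1.25, corrected -1.23). JAG1, a ligand, was at 10.1, 23.9 and 11.7 FPKM (-0.98, corrected -1.40). ADCY6, an adenylyl cyclase, was at 13.8, 0.87 and 9.94 FPKM (2.55, corrected 1.99), lowest with TGF-b1. Of 22 kept YAP and TEAD targets 4 were higher and 1 lower (3 and 0 corrected), led by NT5E, which makes adenosine, at 52.1, 36.5 and 113 FPKM (1.61, corrected 1.62). Of 22 Wnt genes 1 was higher and 1 lower, the latter WNT5A, a noncanonical ligand, at 6.19, 18.2 and 8.02 FPKM (-1.09, corrected -1.30). The 9 RGS proteins and the 9 kinases of the protein kinase C and D families had 0 higher and 0 lower genes.

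**Figure D4:**
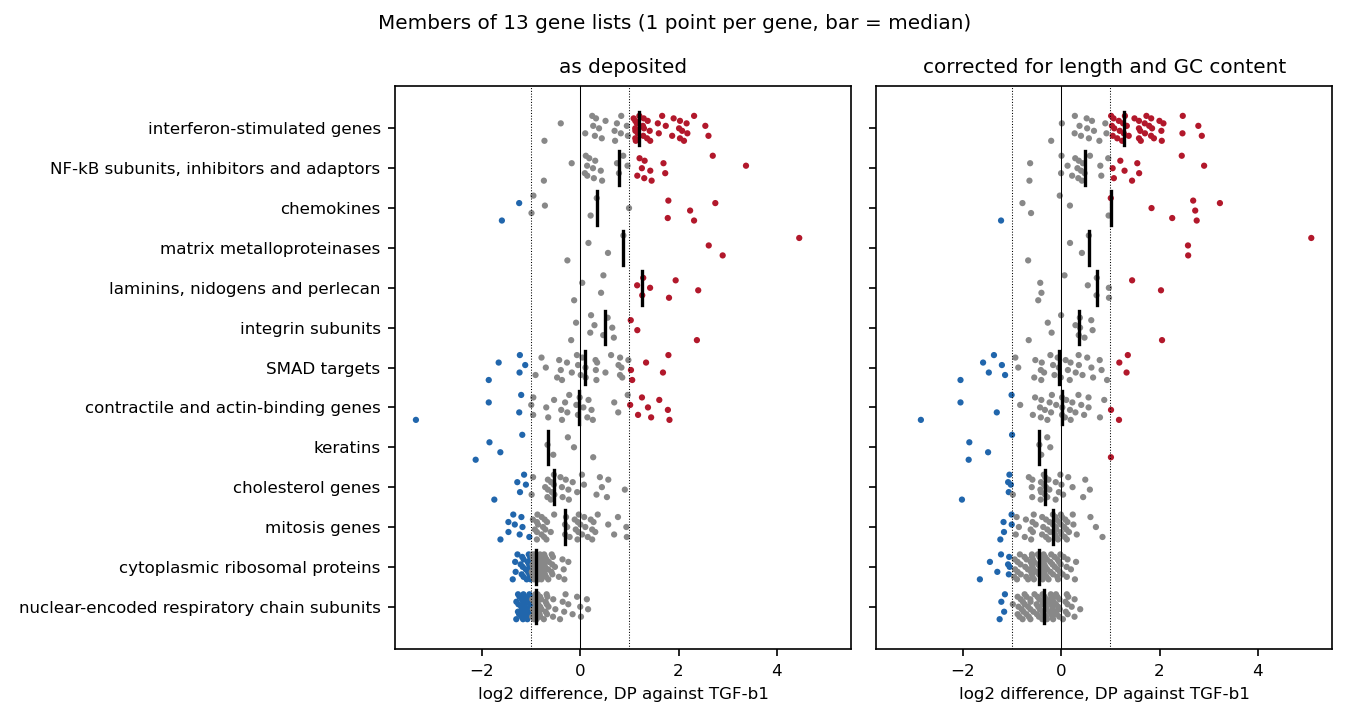
Log2 difference between the TGF-b1+DP and TGF-b1 libraries (x) of each kept gene in 13 lists, as deposited (left) and with the length and GC trend taken off (right), with red for at least 1, blue for at most -1 and a black bar for the median. Interferon-stimulated genes lie to the right in both panels, with medians of 1.19 and 1.28, while ribosomal proteins move from a median of -0.91 to one of -0.44.

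Genes of protein synthesis and respiration were below 0 as deposited and less so after correction. Of 79 cytoplasmic ribosomal proteins 0 were higher and 24 lower, their median being -0.91, against 0 and 8 and -0.44 corrected. Of all genes 4.26% were lower (2.46% corrected), and in the shortest bin 204 of 1128 and in the next 86 of 1128. RPLP2, a stalk protein that shares reads, was at 460.5, 1097 and 422 FPKM (-1.37, corrected -0.71). RPL3, the member nearest to 0, was at 818, 914 and 773 FPKM (-0.24, corrected -0.07). The correction used the longest annotated transcript, which had 7062 bases for RPS29 (-1.31, corrected -1.66) and 3828 for RPS15A (-1.28, corrected -1.23). Whether those transcripts were the ones expressed was not tested, so corrected values of such genes are uncertain. Of 77 nuclear-encoded respiratory chain subunits 0 were higher and 30 lower, with -0.91, against 0 and 4 and -0.36 corrected. Of 77 mitochondrial ribosomal proteins 4 were lower as deposited and 0 corrected (-0.61 and -0.18). The same-total medians of the 3 lists were -0.56, -0.56 and -0.28. The median transcripts of these lists had 1857, 1439 and 1727 bases, and the bins of all genes at those lengths also had negative medians. Ribosome biogenesis genes, with a median transcript of 2870 bases, had a positive median of 0.24 (0.36 corrected). The bin of all genes at that length had a median of -0.12 as deposited. Proteasome subunits had -0.35 as deposited and 0.05 corrected.

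**Figure D5:**
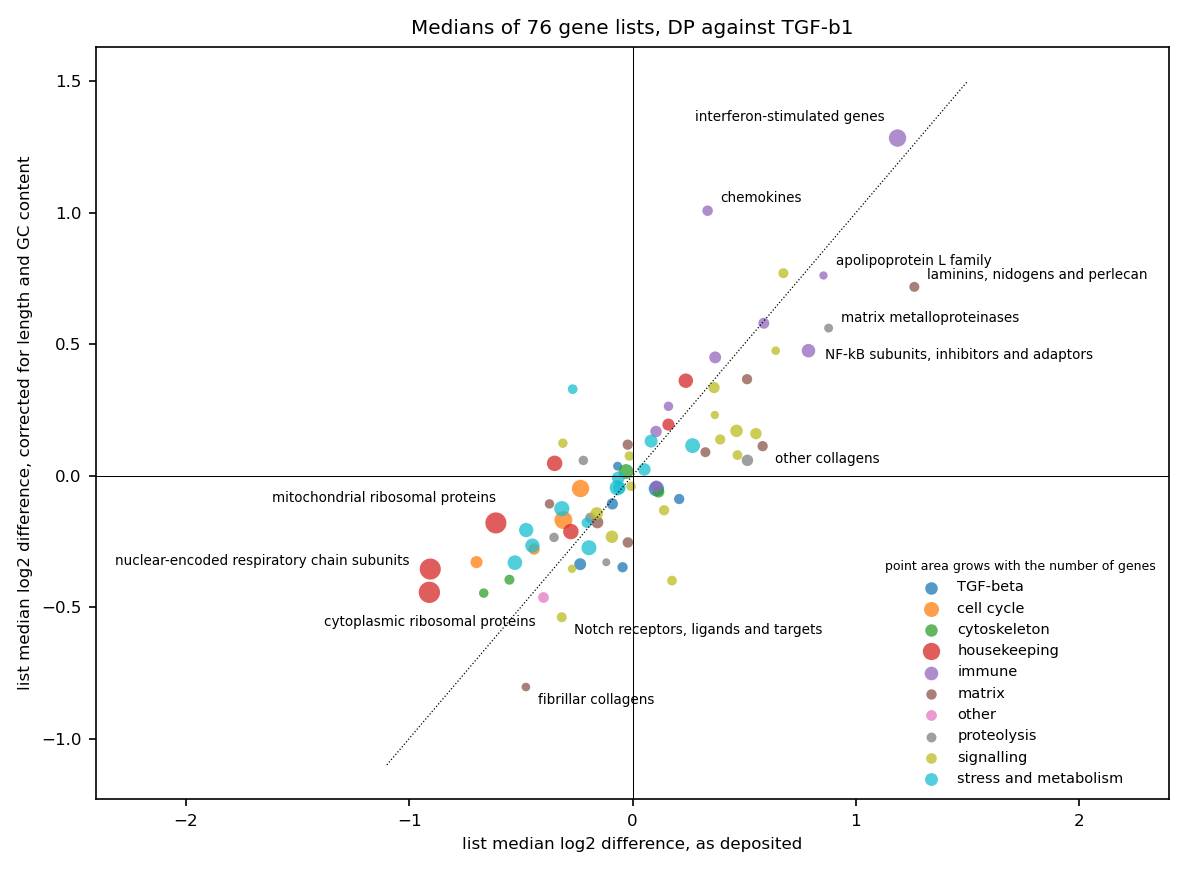
Each point is 1 of 76 gene lists, placed by its median log2 difference as deposited (x) and with the length and GC trend taken off (y), with colour for the section and area growing with the number of kept genes. Interferon-stimulated genes are at 1.19 and 1.28, chemokines at 0.34 and 1.01, and fibrillar collagens at -0.48 and -0.80, and 14 of the 76 medians change sign between the axes.

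Of 53 mitosis genes 0 were higher and 9 lower (0 and 5 corrected), against 4.26% of all genes lower (2.46% corrected), with a median of -0.31 (-0.17 corrected, 0.03 same-total). CENPA, the centromere histone, which shares reads, was at 41.9, 57.2 and 17.9 FPKM (-1.62, corrected -1.01). CCNB2, a mitotic cyclin, was at 95.6, 115 and 41.2 FPKM (-1.46, corrected -1.18). CENPF, a kinetochore protein with a long transcript, was at 19.5, 7.47 and 15.3 FPKM (0.95, corrected 0.59). MKI67 was at 49.3, 14.9 and 29.5 FPKM (0.94, corrected 0.23), so members of the list lay on both sides. Of 50 replication genes 2 were higher and 4 lower (1 and 3 corrected), counts near those shares, among them DUT, which clears dUTP, at 74.4, 106 and 38.5 FPKM (-1.43, corrected -1.08). Of 20 histone genes 1 was higher and 6 lower as deposited and 1 and 0 corrected. Of the CDK inhibitors CDKN2C was at 70.8, 66.2 and 19.3 FPKM (-1.73, corrected -1.86). CDKN3 was at 115, 150.4 and 50.1 FPKM (-1.57, corrected -0.66).

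Of 33 cholesterol genes 0 were higher and 5 lower, also after correction, with a median of -0.53 (-0.33 corrected, -0.19 same-total). Of all genes 6.19% were higher and 4.26% lower (3.16% and 2.46% corrected). INSIG1, which holds back the sterol sensor, was at 65.2, 121 and 51.4 FPKM (-1.23, corrected -1.08). IDI1, an enzyme of isoprenoid synthesis, was at 32.2, 63.7 and 25.6 FPKM (-1.28, corrected -1.07). Both were highest with TGF-b1. Among 34 genes of fatty acids and lipid storage 5 were higher and 1 lower (2 and 0 corrected), led by MGLL, monoacylglycerol lipase, at 9.63, 5.18 and 31.8 FPKM (2.41, corrected 1.99). Of 12 retinoid genes 0 were higher and 2 lower (0 and 1 corrected), among them RARRES2, the adipokine chemerin, at 156, 45.5 and 15.8 FPKM (-1.47, corrected -1.30).

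Of 31 NRF2 targets and redox enzymes 1 was higher and 8 lower as deposited, but 1 and 1 corrected: NQO1, a quinone reductase, was at 48.6, 39.3 and 14.7 FPKM (-1.36, corrected -1.21). SOD2, which NF-kB also drives and which shares reads, was at 56.95, 35.4 and 135 FPKM (1.90, corrected 1.35). Of 31 glycolysis and hypoxia genes 1 was higher and 4 lower (0 and 4 corrected), such as ALDOC, an aldolase, at 46.96, 64.4 and 23.8 FPKM (-1.40, corrected -1.14). Of 35 PERK and ATF4 genes 1 was higher and 3 lower (1 and 2 corrected), and 10 lay above 0. The median was -0.19 (-0.27 corrected, 0.12 same-total). The higher one was PPP1R15A, which reverses the translation block, at 34.97, 14.9 and 52.5 FPKM (1.75, corrected 1.78). The lower ones were NUPR1 (-1.11, corrected -1.38), MTHFD2, which shares reads (-1.08, corrected -1.05), and CHAC1 (-1.05, corrected -0.85). Of 23 calcium pumps and store channels 4 were higher and 0 lower (1 and 0 corrected). Of 24 heat shock proteins 14 lay above 0, 0 were higher and 2 lower (0 and 1 corrected), with a median of 0.08 (0.13 corrected). HSPB1, a small heat shock protein and 1 of the lower ones, was at 197, 466 and 172 FPKM (-1.43, corrected -1.0998). Of 22 p53 targets 1 was higher and 0 lower, and of 37 lysosome and autophagy genes 0 and 0.

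Of 14 imprinted genes 1 was higher and 2 lower. MEST, an imprinted hydrolase-like gene, was at 73.3, 107 and 6.60 FPKM (-3.83, corrected -3.56). IGF2R, which clears IGF2, was at 16.8, 6.02 and 19.2 FPKM (1.52, corrected 0.75).

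Some called genes were neighbours. There were 14 runs of 3 kept genes next to each other on a chromosome that were all called in the same direction. They included IFIT2, IFIT3 and IFIT1 on chromosome 10 (89283694 to 89406486), OAS1, OAS3 and OAS2 on chromosome 12 (112906777 to 113011723) and PARP9, DTX3L and PARP14 on chromosome 3, all higher. The first 2 of these runs held 0 genes with overlapping exons and the PARP9 run 2, so reads may be shared there. The 4 lower runs were S100A6, S100A4 and S100A3 on chromosome 1 (153534599 to 153550136), KRT81, KRT8 and KRT18 on chromosome 12 (2 with overlapping exons), MYLK2, FOXS1 and DUSP15 on chromosome 20, and LAPTM4B, MATN2 and RPL30 on chromosome 8. S100A3 was at 12.8, 16.6 and 4.02 FPKM (-1.81, corrected -1.15). S100A6 was at 865, 849 and 379.5 FPKM (-1.16, corrected -0.47). DUSP15 was at 8.14, 12.6 and 4.01 FPKM (-1.44, corrected -1.21). These runs were looked for after the values were known, and S100A3, S100A6 and DUSP15 were named for them.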

How the data were processed

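The deposited table holds FPKM values to 2 decimals for 3 LX-2 libraries, 1 per group. The authors made these FPKM values, and the submitters' processing notes name BWA, Bowtie, Cufflinks and Cuffdiff and the build GRCh38.p13, with no role or version. The number of mapped fragments was not stated in what was used here, so values carry no counting interval.

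Lines of annotation text (20) were left out. Differences used a pseudocount of 1 FPKM and genes whose 3 libraries averaged 1 FPKM or more, in Python 3.11.15 with pandas 2.3.3 and numpy 2.4.6. A fold on this scale understates the change of low genes. Transcript length and GC content came from the longest transcript in GENCODE release 29, and a running median over 501 genes gave the corrected values. Genes share reads where exons overlap by at least 100 bases (bedtools 2.31.1) or at least 200 bases are at least 97% identical (minimap2 2.31). The script was tested on simulated data.

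The members and the 78 lists were chosen with earlier results of these data known, and 76 lists had measured genes. The naming rule took the 20 largest differences in each direction among genes of at least 5 FPKM in the higher library and above 0 in both, the 4 largest, the highest and the lowest of each list, and key genes. Genes outside it were chosen after their values were seen: TFPI2, the interferon genes named as such, PLAUR, CXCL8, CXCL12, CCL2, B2M, IL11, NFKB1, NFKB2, RELB, NFKBIA, COL5A1, LOXL2, SMAD3, SMAD7, MYL9, CNN1, FLNA, MYH9, ACTN4, TNS1, SMTN, JAG1, MKI67, NOMO1, VIM, S100A3, S100A6 and DUSP15. Some genes of these lists are not reported here.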

Additional observations from a re-analysis of the deposited data

How the results depend on the processing

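No value has a replicate, so no result carries an error and leaving out a replicate could not be done. No paired analysis was possible because each group has 1 library. With both libraries scaled to the same total, 1434 genes were higher and 125 lower and the median was 0.29. A pseudocount of 5 FPKM gave 281 and 264, correction for length and GC content 356 and 278, and a threshold of 2 gave 83 and 30. Correction without genes that overlap or are near-identical, chosen after seeing the data, gave 281 and 188. Upper quartile scaling gave 602 and 644, which turned the balance towards lower genes. The cause was not tested. No called named gene changed sign under any of these settings, but 84 of 223 fell within the threshold after correction, 76 of 179 after correction without overlapping or near-identical genes, 75 of 225 with a pseudocount of 5 FPKM and 43 of 225 with the same total. Of the 76 list medians 14 changed sign after correction and 27 with the same total, and the medians of interferon-stimulated genes, NF-kB genes, metalloproteinases, keratins and fibrillar collagens changed sign under neither.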
